A study of Mus musculus with 9 samples.

Results

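Embryonic stem (ES) cells were compared with mouse embryonic fibroblasts (MEF), the fibroblasts used as the starting cells for making pluripotent-like cells. The pair was taken by the titles of the arrays and makes up 2 of the 9 arrays of the series, 1 for each cell type. Both cell types are Fbx15-null, so the loss of this gene, called Fbxo15 in current nomenclature, is shared by both sides. The ES cells were cultured on STO cells, a mouse fibroblast line used as a feeder layer, and MEF came from E13.5 embryos. Total RNA was labelled with Cy3 and each sample was hybridised once, and both arrays were scanned on the same day, per the file headers. The labels give no line name, passage, strain, sex or number of embryos. With 1 array a side there is no test, no p-value and no replicate error, and a difference between the cell types cannot be told apart from one between these 2 preparations.

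ES cells are derived from the inner cell mass of the blastocyst. They renew themselves under a network of transcription factors centred on Oct4 (Pou5f1), Sox2 and Nanog, grow as tight epithelial colonies and express few genes of differentiated tissues. Fibroblasts of the embryo are mesenchymal cells that secrete and remodel a collagen matrix, carry actin and myosin fibres, and keep a positional HOX code. Serum response factor, which binds the CArG box, drives many of the contractile genes.

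A level is given below as log2 of the scanner program's background-subtracted signal, relative to the 75th percentile of that array, and a difference is the ES level minus the MEF level. Levels were set to a floor at 3.63% of the 75th percentile (-4.78 on the log2 scale), and a level at the floor only says that the signal was no higher. The 75th percentile was 198 intensity units for ES and 214 for MEF, and 57.5% and 56.0% of the 20868 probes were well above background, as the program flags it. Where the dimmer side was not above background, or the brighter side was saturated, the fold is a bound and is written as "at least". A bound sets the bright signal against the lowest signal above background on the dim array itself, which can lie below the floor and make the bound larger than the floored difference. Errors after ± are those of the log2 difference by the scanner program's own error model (median 0.24 over genes above background on both arrays) and hold no biological variation. Repeated spots of the same probe gave an SD of 0.16 (log2) on the ES array and 0.10 on the MEF array.

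The promoters of 4 genes are printed because each holds a motif for a factor of the cell type in which the gene was higher. They are RefSeq windows of 300 bases (250 before and 50 after a transcription start, build GRCm38.p6), with the matched motif in capitals. Nanog (chr6:122707239-122707538, plus strand) holds the composite Oct-Sox element, and every motif was searched on both strands. The letters TTTGCAT are common to this element and the octamer. Zfp42 (chr8:43306960-43307259, minus strand) holds the octamer ATTTGCAT, the sequence bound by Oct4 and its relatives. Actc1 (chr2:114052826-114053125, minus strand) and Myl9 (chr2:156775214-156775513, plus strand) hold a CArG box.
Nanog: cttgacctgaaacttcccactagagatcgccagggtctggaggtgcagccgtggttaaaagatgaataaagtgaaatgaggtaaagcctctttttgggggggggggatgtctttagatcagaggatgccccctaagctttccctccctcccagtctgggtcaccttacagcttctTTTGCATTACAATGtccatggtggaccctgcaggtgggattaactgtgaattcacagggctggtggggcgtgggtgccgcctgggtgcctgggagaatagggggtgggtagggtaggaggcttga
Zfp42: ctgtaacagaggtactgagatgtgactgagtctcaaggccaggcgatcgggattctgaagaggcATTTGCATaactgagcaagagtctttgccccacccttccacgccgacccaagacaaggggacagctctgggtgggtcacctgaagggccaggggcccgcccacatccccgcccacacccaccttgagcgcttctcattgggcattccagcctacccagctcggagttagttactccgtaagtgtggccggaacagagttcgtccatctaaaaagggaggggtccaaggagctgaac
Actc1: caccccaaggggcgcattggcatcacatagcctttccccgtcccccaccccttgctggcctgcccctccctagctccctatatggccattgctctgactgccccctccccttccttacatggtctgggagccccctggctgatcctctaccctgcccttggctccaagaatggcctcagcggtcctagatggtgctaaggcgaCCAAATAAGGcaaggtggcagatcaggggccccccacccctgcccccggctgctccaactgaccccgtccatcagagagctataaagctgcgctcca
Myl9: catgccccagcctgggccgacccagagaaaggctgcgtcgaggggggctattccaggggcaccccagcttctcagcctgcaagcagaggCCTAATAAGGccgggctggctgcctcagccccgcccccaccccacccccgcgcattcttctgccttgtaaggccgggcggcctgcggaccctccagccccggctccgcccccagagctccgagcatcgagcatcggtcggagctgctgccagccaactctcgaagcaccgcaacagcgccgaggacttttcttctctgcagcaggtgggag

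These letters were rare in the windows of all genes. Of 12683 genes with a window, 1 held the Oct-Sox letters, and it was Nanog. The octamer was in 1.60% of all windows, in 2.64% of 568 windows of genes at least 5-fold higher in ES and in 2.11% of 474 windows of genes at least 5-fold lower. The CArG box was in 1.43% of all windows, in 1.76% of the windows of genes higher in ES and in 3.80% of those of genes lower in ES. Among 16 contractile and cytoskeletal genes with a window, 3 held it, namely Myl9, Cnn2 and Vcl. A match describes the letters in the window and says nothing of binding in these cells.

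ES cells and MEF differed over a wide range of genes. Of 16006 genes measured, 746 were at least 5-fold higher in ES, which is 4.66% of all genes, and 639 were at least 5-fold lower (3.99%), with the brighter side above background. Zfp42, a zinc finger factor of ES cells, was at least 4130-fold higher in ES, and H19, a maternally expressed imprinted RNA, at least 437-fold lower. Counts use the floored difference, so 29 genes with a bound of at least 5-fold but a smaller floored difference, all higher in ES, are not among them. Their side was fixed in advance. The floor is the lowest signal above background on the ES array, so only genes higher in ES can have such a bound. On the ES side 394 of the 746 genes were not above background in MEF, while 154 of the 639 lower genes were not above background in ES. A gene without a signal on the dimmer array was thus more often one of the genes higher in ES. Another 5424 genes were above background on both arrays and less than 2-fold apart. Scaling each array to its median in place of the 75th percentile gave 545 genes higher and 779 lower, a share of 41.2% higher among the genes past 5-fold against 53.9%. That scaling moved the median difference of the 8939 genes above background on both arrays from 0.05 to -0.28.

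**Figure D1:**
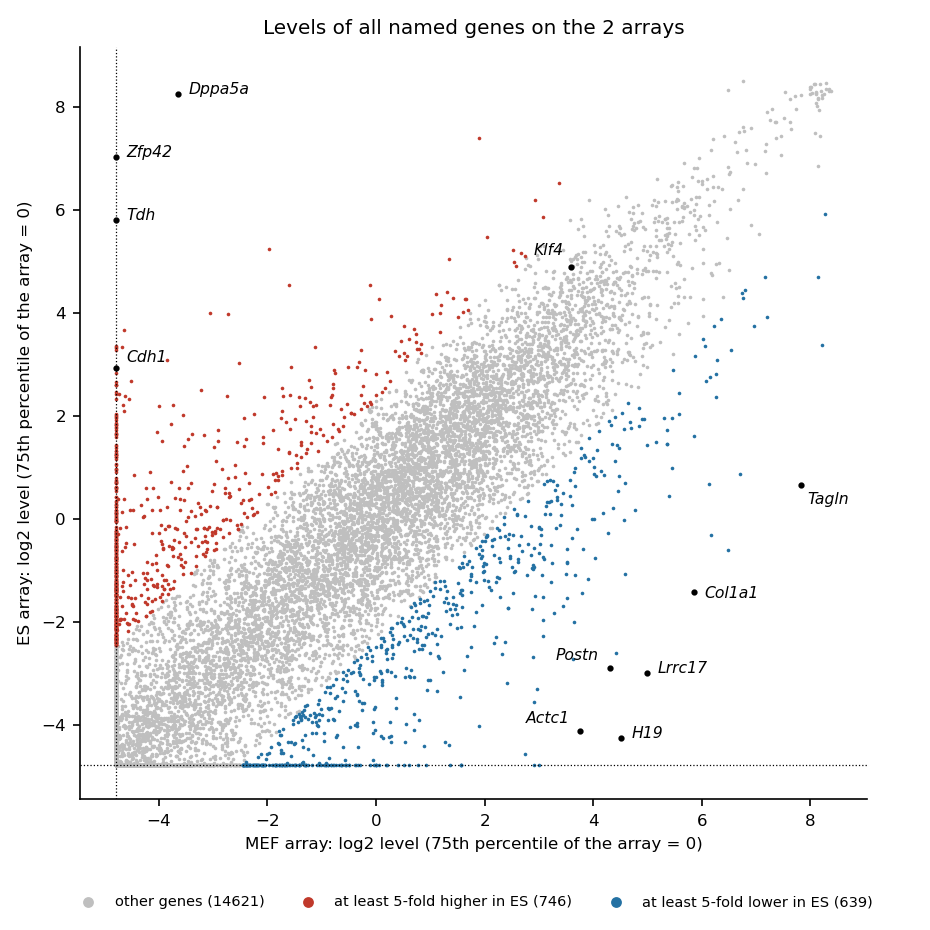
Level of each of 16006 named genes on the MEF array (horizontal) and the ES array (vertical), as log2 relative to each array's 75th percentile, with dotted lines at the floor of -4.78. Red points are the 746 genes at least 5-fold higher in ES, blue points the 639 at least 5-fold lower; many red points lie on the MEF floor, and the lower genes spread mostly above the ES floor.

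The spread was set beside that of other pairs of arrays. Across the 8939 genes above background on both arrays, Pearson's r was 0.842 (across genes, which are not replicates), and the robust SD of the difference was 1.14. The 2 clones made with 3 factors, which share a protocol, had a robust SD of 0.25, and 2 genes were 5-fold higher and 11 lower between them (0.0812% of genes). Between MEF and the unselected MEF that received 4 factors, the robust SD was 0.91 and 3.17% of genes were 5-fold apart. Of these, 398 were higher and 110 lower in the unselected MEF. MEF and the unselected MEF were scanned on different days, unlike ES and MEF and unlike the clones. The spread of that pair therefore cannot be told apart from one of scan day. ES and MEF were 5-fold apart in 8.65% of genes. At a 10-fold threshold 364 genes (2.27%) were higher in ES and 235 (1.47%) lower, and at 100-fold there were 35 and 11.

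**Figure D2:**
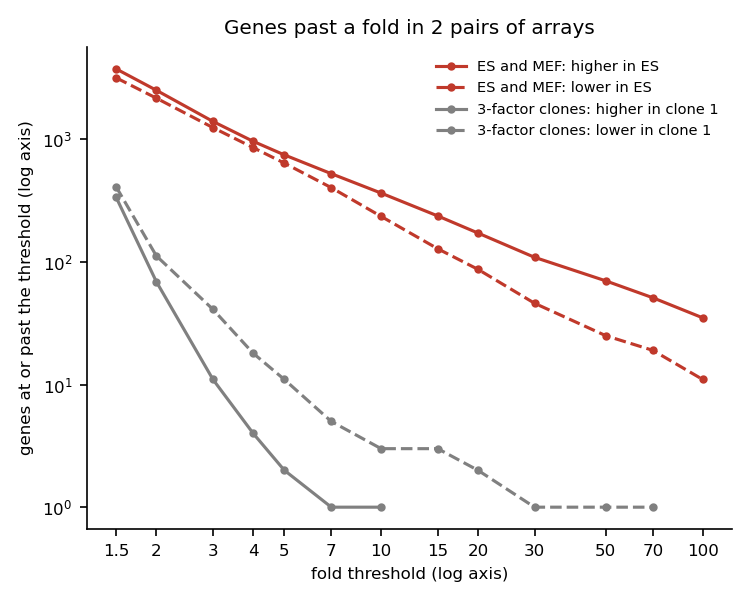
Number of genes at or past each fold threshold (both axes logarithmic) between ES and MEF (red) and between the 2 clones made with 3 factors (grey), with solid lines for the higher and dashed lines for the lower side. At 5-fold the ES and MEF pair has 746 and 639 genes, the pair of clones 2 and 11.

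Markers of both cell types were set against the labels. All 8 ES-cell markers (Pou5f1, Nanog, Sox2, Zfp42, Dppa5a, Fbxo15, Cdh1 and Epcam) were above background in ES, and 1 of them, Dppa5a, was above background in MEF, at -3.65. All 8 fibroblast markers (Col1a1, Col1a2, Col3a1, Pdgfrb, Thy1, Twist1, Prrx1 and Postn) were above background in MEF. The same 8 were above background in ES too, at 0.648% of the MEF level for Col1a1, 0.678% for Postn, 1.11% for Col3a1, 3.50% for Col1a2 (saturated in MEF), 4.11% for Prrx1, 4.66% for Pdgfrb, 13.4% for Twist1 and 14.4% for Thy1. More broadly, 141 genes at 3 or more in MEF were at least 5-fold lower in ES. Of these, 139 were still above background in ES, at a median of 9.93% of the MEF signal (range 0.391% to 19.8% over these 139). Over all genes 62.8% were above background in ES, but the choice of bright MEF genes nearly sets the count of 139. Such a gene reaches the floor in ES only after a very large drop, and the 5-fold rule caps the range. The count thus says only that few of these genes fell that far. STO feeder cells are fibroblasts, and their part in the fibroblast signal of the ES array was not tested. In RNA of a mixed culture, fewer fibroblasts and less of a transcript per fibroblast cannot be told apart.

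Fbxo15, the F-box gene removed in both cell types, gave a level of 1.24 in ES and was at the MEF floor. No source used here says if its probe reads the removed stretch, so this member of the marker list tests no label.

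**Figure D3:**
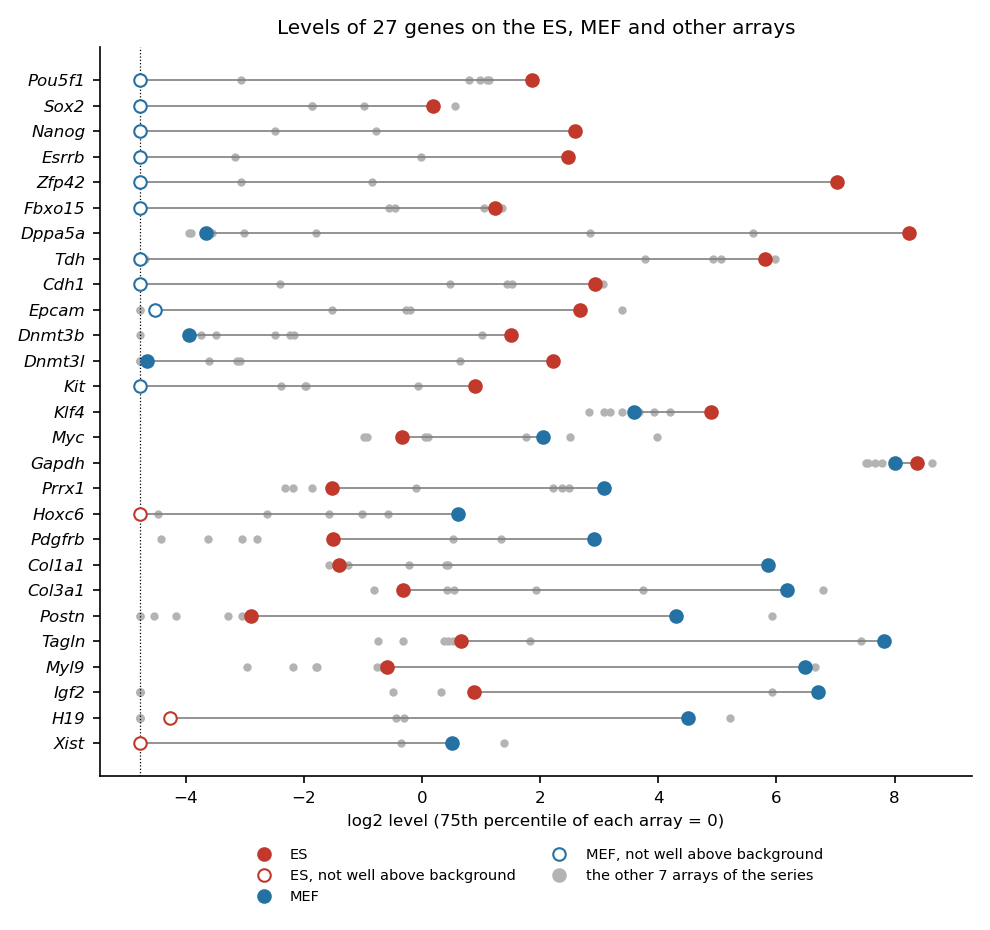
Levels of 27 genes named in the text on the ES array (red), the MEF array (blue) and the other 7 arrays of the series (grey), as log2 relative to each array's 75th percentile; open symbols are not well above background and the dotted line is the floor. Pluripotency genes from Pou5f1 to Kit lie at or near the floor in MEF, Gapdh is near 8 on both arrays (saturated in ES), and genes from Prrx1 to Xist are higher in MEF.

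Most transcription factors of ES cells were higher in ES. Of 25 measured, 16 were at least 5-fold higher in ES, 1 was at least 5-fold lower and 8 were under 5-fold, with a median difference of 4.42 against 0 over all genes. Pou5f1, the POU factor at the centre of the network, was at 1.87 in ES and at the floor in MEF, at least 115-fold higher. Nanog, a homeobox factor, was at 2.59 in ES and at the MEF floor, at least 191-fold higher. Sox2, the partner of Oct4 on composite elements, was at 0.18 in ES and at the floor in MEF, at least 35.8-fold higher. For these 3 genes the MEF array thus gave no signal above background. Zfp42 (Rex1), for which the files place the probe on chromosome 8 at 42236431 to 42236490 without naming a build, reached 7.03 in ES. Esrrb, an orphan nuclear receptor that supports self-renewal, was at 2.47 in ES (at least 175-fold), and Tcf15, a basic helix-loop-helix factor, at 3.34 (at least 321-fold). Nr5a2, Tfcp2l1 and Nr0b1, further factors of the network, were at least 127-fold, 125-fold and 104-fold higher, each at the floor in MEF.

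Some factors of this list were shared. Klf4, a Krüppel-like factor, was bright on both arrays, at 4.89 in ES and 3.59 in MEF, 2.47-fold higher in ES (1.30 ± 0.21). Klf2, its relative, was at 5.48 and 2.05, 10.8-fold higher in ES. Sall4, a zinc finger gene of ES cells, stood at -2.35 and -2.60. Myc, the growth-promoting factor, was the 1 member lower in ES, at -0.34 against 2.04 in MEF, 5.20-fold (-2.38 ± 0.23), and 4.30-fold after normexp background correction, which also put Sox2 at 4.18-fold. That correction adds an offset of 50 intensity units to every signal, which by itself lowers the folds of dim genes. Tbx3 was not above background on either array, and neither was Otx2. Of these genes Pou5f1 and Sox2 therefore lacked a signal in MEF, while Klf4 and Myc had one.

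Marker genes of ES cells were higher still as a group, with 20 of 25 measured at least 5-fold higher, none lower and a median difference of 5.31. Dppa5a, an RNA-binding protein of early embryos, was saturated in ES at 8.25 and at -3.65 in MEF, at least 3822-fold higher. Tex19.1, active in ES and germ cells, was at 3.36 in ES (at least 325-fold), Ooep, an oocyte and embryo protein, at 3.35 (at least 261-fold), and Trap1a, an X-linked antigen gene, at 2.65 (at least 199-fold). All of these but Dppa5a were without a signal above background in MEF. Lefty1, a secreted Nodal inhibitor, was at 3.98 in ES and -2.72 in MEF (104-fold), while Nodal itself was at -0.44 and the floor (at least 23.4-fold). Alpl, the alkaline phosphatase used to stain ES colonies, was at least 130-fold higher. The exceptions included Spp1, a secreted phosphoprotein, at 6.72 in ES and 7.19 in MEF, and Tdgf1 and Lin28a, whose probes were above background on neither array.

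Signalling genes of ES cells moved less. In the list of LIF, BMP and FGF signalling 2 of 21 members were at least 5-fold higher, 1 was at least 5-fold lower and the median difference was 0.22. Etv5, an FGF target, was not counted, since its bound is at least 5.71-fold but its floored difference is 2.32, just under 5-fold. After normexp, another background correction, none of the 21 was at least 5-fold higher. Acvr2b, an activin receptor, was at 0.60 in ES and -4.23 in MEF (28.4-fold, 4.83 ± 0.63). Lif, the cytokine that keeps mouse ES cells undifferentiated, was at -1.94 in ES and not above background in MEF (at least 6.79-fold), and was under 5-fold with the arrays scaled to their medians. Socs3, a feedback target of LIF signalling, was 4.44-fold higher in ES (4.46 against 2.31). Id3, a target of BMP signalling, was 9.11-fold lower (-0.18 against 3.00), and Id2 3.35-fold lower. The cytokine receptor chain Il6st (gp130) was 2.92-fold lower by its brightest probe, and its other probe was above background on neither array.

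Epithelial adhesion genes were higher in ES or similar. Of 33 measured, 12 were at least 5-fold higher, none was at least 5-fold lower, 24 were at least 2-fold higher and the median difference was 1.83. Over all genes 15.7% were at least 2-fold higher in ES. Cdh1 (E-cadherin), the junction protein of epithelia, was at 2.93 in ES and at the MEF floor (at least 241-fold). Epcam, an epithelial adhesion molecule, was at 2.68 in ES and -4.52 in MEF, not above background there (at least 147-fold). Both are thus signals of the ES array without a counterpart in MEF. Tjp3, a tight junction protein, was at least 61.4-fold higher and Ap1m2, an epithelial sorting adaptor, at least 34.0-fold. After normexp correction 5 of the 33 were at least 5-fold higher. The simple epithelial keratins Krt8 and Krt18 were above background on both arrays, with differences of 1.91 and -0.20.

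**Figure D4:**
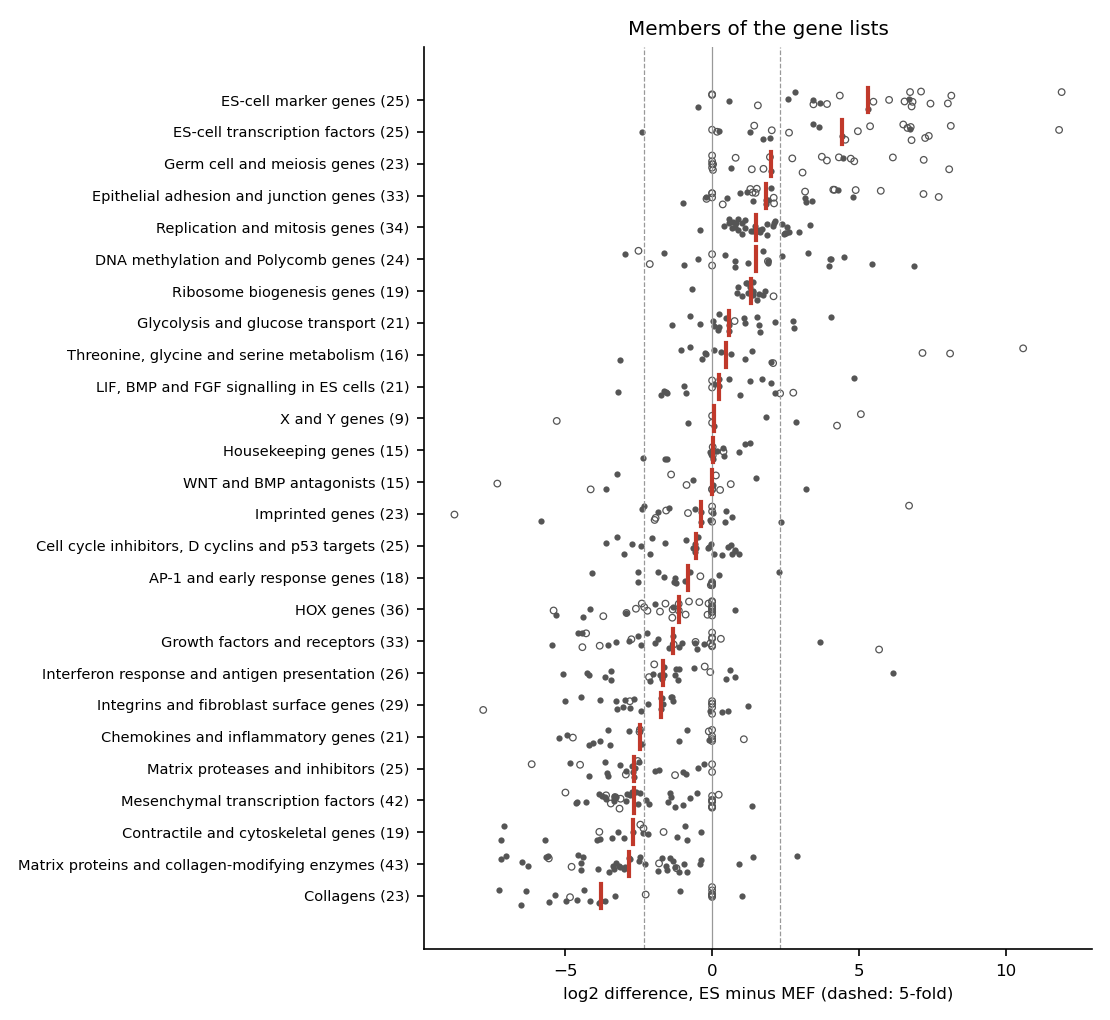
Difference (ES minus MEF, log2) of each measured member of 26 gene lists, with the number of members in brackets, a red bar at the list median, dashed lines at 5-fold and filled points where both arrays were above background and unsaturated (open points are bounds or genes above background on neither array). The medians run from 5.31 for ES-cell markers to -3.78 for collagens, and the list of ribosome biogenesis genes is narrow with no member past 5-fold.

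Genes of DNA methylation and the Polycomb complexes were more often higher than lower in ES, with PRC1 genes on both sides. Of 24 measured, 8 were at least 5-fold higher in ES and 2 at least 5-fold lower, with a median difference of 1.49. The de novo methyltransferases stood out: Dnmt3b was at 1.51 in ES and -3.94 in MEF (43.7-fold, 5.45 ± 0.55), Dnmt3a at 1.12 and -2.94 (16.7-fold), and their cofactor Dnmt3l at 2.21 and -4.66 (117-fold, 6.87 ± 0.78). The maintenance enzyme Dnmt1 was 1.72-fold higher. Tet1, which oxidises methylcytosine, was 16.0-fold higher. Among Polycomb genes, Phc1 of PRC1 was 22.3-fold higher, Mtf2 of PRC2 15.6-fold and its partner Jarid2 9.67-fold. The catalytic and core PRC2 genes Ezh2, Eed and Suz12 differed by 1.75, 1.90 and 1.89, under 5-fold. On the other side, Mbd2, a reader of methylated DNA, was 7.73-fold lower in ES, and the PRC1 genes Cbx8 and Bmi1 were at least 5.68-fold and at least 4.35-fold lower, with no signal above background in ES. The Cbx8 difference was under 5-fold with the arrays scaled to their medians, and after normexp correction 5 of the 24 were at least 5-fold higher and 1 lower.

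Germ cell and meiosis genes were present in ES and largely without a signal in MEF. Of 23 measured, 18 were above background in ES and 3 in MEF, against 62.8% and 60.8% of all genes. At least 5-fold higher in ES were 11, and none was at least 5-fold lower (median difference 1.99). Stra8, which licenses entry into meiosis, was at 3.29 in ES and at the MEF floor (at least 309-fold). Tdrd12, of the piRNA pathway, was at 2.42 (at least 169-fold), Tex14, of germ cell bridges, at 1.37 (at least 81.7-fold) and Smc1b, a meiotic cohesin, at 0.06 (at least 32.9-fold). For all 4 the ES array was the brightest of the 9 arrays, and Smc1b was above background on no other array. After normexp correction 4 of the 23 were at least 5-fold higher. Aurkc, a meiotic kinase in the aurora family, was at 3.68 in ES (at least 319-fold higher).

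In threonine and glycine metabolism a few genes carried very large differences. Tdh, threonine dehydrogenase, on which mouse ES cells depend to break down threonine, was at 5.81 in ES and at the floor in MEF, at least 1769-fold higher. Gldc, of the glycine cleavage system, was at 2.43 (at least 143-fold) and Pipox, a peroxisomal oxidase of pipecolate and sarcosine, at 3.32 (at least 315-fold). These were the 3 of 16 members at least 5-fold higher, and Slc6a9, a glycine transporter, was the 1 at least 5-fold lower (8.79-fold). Gcat, the enzyme that acts after Tdh, was 2.55-fold higher, and Phgdh, which starts serine synthesis, was 2.06-fold lower. The median over the list was 0.47, and it was -0.07 over the members above background on both arrays.

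Genes of growth were higher in ES by modest amounts. Of 34 replication and mitosis genes, all above background on both arrays, 8 were at least 5-fold higher and 24 at least 2-fold higher, and the median difference was 1.504. Among genes of the replication origin, Orc1 was 10.1-fold higher (2.54 against -0.79), Mcm10 7.79-fold, Mcm5 6.18-fold and Mcm2 5.88-fold. With arrays scaled to their medians 2 of the 34 were at least 5-fold higher. Ribosome biogenesis genes showed a smaller and more even difference, with 16 of 19 at least 2-fold higher, none past 5-fold and a median of 1.32. Npm1 (nucleophosmin) was 3.34-fold higher (8.504 against 6.76) and Polr1b, a subunit of RNA polymerase I, 3.45-fold.

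The list of cell cycle inhibitors, D cyclins and p53 targets was lower in ES in part. Of 25 measured, 5 were at least 5-fold lower and none higher (median difference -0.56). Cdkn2b (p15) was 9.51-fold lower and Cdkn2a, the locus of p16 and p19Arf, 6.67-fold, at -3.04 in ES and -0.30 in MEF. Gadd45g, a stress-response gene, was 12.3-fold lower and Ccnd2 (cyclin D2) 7.94-fold. After normexp correction 2 of the 25 were at least 5-fold lower, and Cdkn2b (4.14-fold) and Cdkn2a (2.56-fold) were not. Early response genes followed, with Egr2 17.1-fold, Jun 5.81-fold and Fosl1 5.80-fold lower as the 3 of 18 members past 5-fold, while Ier2 was 4.90-fold higher. After normexp correction none of the 3 kept 5-fold.

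Glycolysis genes were above background on both arrays in all 21 cases, and 3 were at least 5-fold higher in ES. Aldoc, an aldolase, was 16.6-fold higher, Ldhb, a lactate dehydrogenase subunit, 6.88-fold (5.86 against 3.08) and Pdk1, which inhibits pyruvate dehydrogenase, 6.79-fold. Slc2a1, the glucose transporter GLUT1, was 4.36-fold higher. The median of the list was 0.57, and Eno3, the muscle enolase, was 2.55-fold lower.

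Collagens formed the largest group of MEF genes by their median. Of 23 measured, 14 were at least 5-fold lower in ES, none was 5-fold higher, 6 were above background on neither array and the median difference was -3.78. Col1a1, the main chain of type I collagen, was at -1.41 in ES and 5.86 in MEF (154-fold lower, -7.27 ± 0.26), with its probe placed by the files on chromosome 11 at 94772415 to 94772601. Col3a1 was at -0.32 and 6.17 (90.02-fold) and Col5a2 at -2.72 and 3.63 (81.3-fold). Fibril-forming chains thus separated the arrays by several log2 units while staying detectable in ES. The basement membrane chains Col4a1 and Col4a2 differed by -3.29 and -3.86. Col18a1, also of basement membranes, went the other way, 2.01-fold higher in ES (3.98 against 2.97).

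Matrix proteins and the enzymes that process collagen showed the same direction. Of 43 measured, all above background in MEF, 25 were at least 5-fold lower in ES and 1 was at least 5-fold higher, with a median of -2.82. Postn (periostin) was at -2.90 in ES and 4.30 in MEF (147-fold), Lox, which crosslinks collagen, at -2.60 and 4.42 (130-fold), Fbn1 (fibrillin) at -3.56 and 2.91 (88.7-fold) and Thbs2 (thrombospondin) at -3.31 and 2.96 (77.0-fold). The 1 gene higher was Lama1, the laminin chain of early embryos, at -1.54 in ES and -4.44 in MEF (7.49-fold, 2.90 ± 0.76). Nid2, another basement membrane gene, was 2.63-fold higher. Among matrix proteases and inhibitors 16 of 25 were at least 5-fold lower (median -2.64), including Adamts2, which trims procollagen, at least 70.6-fold, and Ctsk, a collagen-degrading cathepsin, at least 22.5-fold. After normexp correction 8 of the 25 were at least 5-fold lower.

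The contractile apparatus was lower in ES, with 13 of 19 measured genes at least 5-fold lower, none higher and a median of -2.70. Myl9, a myosin light chain whose promoter is printed above, was at -0.60 in ES and 6.48 in MEF (135-fold, -7.08 ± 0.24). Cnn1 (calponin) was at -1.08 and 4.59 (51.0-fold) and Acta2 (smooth muscle actin) at 1.01 and 4.01 (8.02-fold). Actc1, the cardiac actin whose promoter is also printed above, was at -4.13 and 3.76 (238-fold, -7.89 ± 0.60). Tagln (transgelin) had 2 probes that gave very different sizes: 0.66 in ES and 7.83 in MEF for the brightest (144-fold) and 3.75 and 5.63 for the other, a difference of -1.87. Vim (vimentin), the mesenchymal filament protein, was at 3.37 and 6.07 (6.49-fold).

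Integrins and surface proteins of fibroblasts were mixed. Of 29 measured, 12 were at least 5-fold lower in ES and none 5-fold higher (median -1.74), and after normexp correction 6 were. Itga11, a collagen-binding integrin, was at the floor in ES and at 3.01 in MEF (at least 222-fold). Cdh11, the mesenchymal cadherin, was 32.6-fold lower, Cd248 (endosialin) 22.1-fold and Ddr2, a collagen receptor, 14.0-fold. Itga6, a laminin receptor, was 2.32-fold higher in ES (2.46 against 1.24).

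Mesenchymal transcription factors were at least 5-fold lower in ES in 24 of 42 cases and at least 2-fold lower in 30, with none 5-fold higher and a median of -2.65. Prrx1, a homeobox factor of limb mesenchyme, was at -1.52 in ES and 3.08 in MEF (24.3-fold, -4.60 ± 0.25). Foxd1 was at least 31.9-fold lower, Shox2 24.6-fold and Tbx15 19.8-fold, and the regulators of epithelial-mesenchymal transition Snai2 and Twist1 were 14.3-fold and 7.49-fold lower. Hand2 went the other way, 2.56-fold higher with low levels on both arrays (-2.83 and -4.18). Many of these factors were dim, and after normexp correction 6 of the 42 were at least 5-fold lower.

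HOX genes, which hold the positional identity of fibroblasts, were above background in ES for 7 and in MEF for 24 of 36 measured. The shares over all genes were 62.8% in ES and 60.8% in MEF. A 5-fold lower level in ES was found for 9, none was 5-fold higher, and 12 were above background on neither array (median -1.14). Hoxc6 was at the floor in ES and at 0.61 in MEF (at least 42.1-fold), Hoxa10 at -4.42 and 0.88 (39.5-fold), Hoxb6 at -4.25 and 0.14 (20.9-fold) and Hoxa7 at -1.10 and 3.06 (17.9-fold). After normexp correction 3 of the 36 passed 5-fold.

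Growth factors, their receptors and secreted antagonists differed in both directions. Of 33 growth factor genes, 12 were at least 5-fold lower in ES and 2 at least 5-fold higher (median -1.33). Igfbp7, an insulin-like growth factor binding protein, was 43.8-fold lower, Tgfb3 23.5-fold, Pdgfrb, the receptor for platelet-derived growth factor, 21.5-fold and Nrp1 (neuropilin) at least 21.4-fold. The 2 higher were Kit, the stem cell factor receptor, at 0.90 in ES and the floor in MEF (at least 59.0-fold), and Igfbp2, at 3.95 and 0.28 (12.7-fold). Of 15 antagonists of WNT and BMP signalling, 4 were at least 5-fold lower in ES, among them Dkk2 (at least 17.6-fold), Fst (12.2-fold) and Dkk3 (9.35-fold). The 1 at least 5-fold higher was Sfrp4 (9.15-fold, 3.19 ± 0.59). After normexp correction 6 of the 33 growth factor genes and 2 of the 15 antagonists were at least 5-fold lower, and Dkk2 (2.49-fold), Fst (4.11-fold) and Sfrp4 (2.36-fold) were under 5-fold.

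Inflammatory and interferon genes were higher in MEF. Of 21 chemokine and inflammatory genes, 12 were at least 5-fold lower in ES and none higher (median -2.46). Cxcl12, which attracts CXCR4-bearing cells, was at -1.44 in ES and 3.78 in MEF (37.3-fold), Ccl7 was 31.0-fold lower and Cxcl14 18.1-fold. After normexp correction 5 of the 21 passed 5-fold. Of 26 interferon response and antigen presentation genes, 6 were at least 5-fold lower (median -1.67), led by Isg15, a ubiquitin-like interferon product, at -1.16 and 3.90 (33.4-fold), Usp18, its protease, at -3.32 and 0.93, and Ifit1 (18.4-fold). Ifitm1 was the 1 at least 5-fold higher, at 4.55 in ES and -1.61 in MEF (71.2-fold, 6.15 ± 0.26). It is a membrane protein known in early mouse germ cells.

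Imprinted genes, expressed from a single parental copy, did not differ in 1 direction. Of 23 measured, 4 were at least 5-fold lower in ES and 2 at least 5-fold higher (median -0.38). H19, at 4.51 in MEF, was not above background in ES, and its neighbour Igf2, a fetal growth factor, was at 0.88 in ES and 6.70 in MEF (56.5-fold lower, -5.82 ± 0.22). Peg3 was 5.25-fold lower and Sgce was at 0.04 in ES and 2.36 in MEF. Phlda2, which limits placental growth, was at 1.92 in ES and the floor in MEF (at least 120-fold), and Snrpn was 5.03-fold higher. The calls of Snrpn and Sgce sit on the 5-fold line and were each lost under an alternative scaling, and after normexp correction 1 of the 23 was at least 5-fold higher and 2 lower.

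Xist, the RNA of the inactive X chromosome, was at 0.51 in MEF and not above background in ES (at least 39.1-fold lower). The Y-linked genes were above background on both arrays for Ddx3y (-1.04 in ES and -1.11 in MEF), Eif2s3y (1.11 and -0.72) and Kdm5d (-4.25 and -3.43), and Uty was above background on neither. The homeobox genes Rhox9 and Rhox6 on the X chromosome were at least 38.4-fold and at least 21.9-fold higher in ES, both at the floor in MEF, and Rhox5 was 7.31-fold higher. After normexp correction Xist (4.62-fold), Rhox9 (4.40-fold) and Rhox6 (2.81-fold) were under 5-fold. The MEF array thus carried both Xist and Y-linked signals.

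Housekeeping genes were near to each other on the 2 arrays. The median difference of 15 was 0.04, and it was -0.31 with the arrays scaled to their medians and -0.08 after quantile normalization. Hprt differed by 0.40, Sdha by 0.17, Eef1a1 by -0.06 and Rpl13a by 0.04, and Ppia and Rplp0 were saturated on both arrays. Ywhaz was 2.44-fold higher in ES, and Actg1 and Gusb were 2.87-fold and 3.05-fold lower.

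Genes of early lineages gave no shared direction. Of 13 primitive endoderm genes, Amn was 6.71-fold higher in ES and the rest were under 5-fold. Tfap2c, a trophectoderm factor that is also active in germ cells, was at 1.79 in ES (at least 109-fold higher), while Gata3 was 7.62-fold lower. Pax6, a neural factor, was at -1.39 in ES and the floor in MEF (at least 12.02-fold higher), and Nes (nestin) and Zic1 were 5.60-fold and at least 17.6-fold lower. After normexp correction none of the 5-fold differences of Amn, Gata3, Pax6, Nes and Zic1 was past 5-fold. The mesoderm genes T, Mixl1, Evx1, Mesp1 and Kdr were above background on neither array.

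Markers of other cells that a MEF preparation can hold were also read. Over all genes 60.8% were above background in MEF and 62.8% in ES, and the counts below stand beside these shares. Of 14 macrophage and blood markers 10 were above background in MEF and 5 in ES, with a summed level of 2.42 times the 75th percentile in MEF and 0.9003 in ES; C1qa, a complement gene of macrophages, was at -0.01 in MEF and the floor in ES (at least 27.4-fold lower), and Ptprc and Itgam were at the floor on both arrays. Of 17 skeletal muscle markers 11 were above background in MEF and 8 in ES (summed level 19.8 and 4.02), and Myod1, Myf5, Myog and Myf6 were at the floor on both. The muscle list also holds Actc1 (238-fold) and Acta1 (60.6-fold, 1.90 in MEF), both higher in MEF, and Myh3 (25.05-fold) and Tnnt1 (10.02-fold), both higher in ES. After normexp correction Myh3 (4.04-fold), Tnnt1 (3.15-fold) and C1qa (3.61-fold) were under 5-fold. Of the 17 muscle markers 2 were then at least 5-fold lower in ES and none higher. In MEF the endothelial markers Cd34 and Egfl7 were at 2.39 and 1.75 (1.88 and 3.35 in ES), and the cartilage collagen Col2a1 was at 2.22 (-2.30 in ES). Of 11 endothelial markers 5 were above background in MEF and 8 in ES (summed level 10.7 and 15.4). Cdh5 and Tie1 were at the floor on both. At least 5-fold differences were found for 3 of the 11 higher in ES and 1 lower. The lower gene was Flt1, at -4.10 in ES and 0.71 in MEF, above background on both. After normexp correction none of the 11 was at least 5-fold higher and 1 was lower. Vwf, at -0.62 in ES by its brighter probe, had another probe above background on neither array. Summed levels in MEF and ES were 0.400 and 1.12 for 9 erythroid markers, 3.02 and 7.08 for 10 nerve and glia markers, 1.30 and 1.53 for 5 keratinocyte markers, 1.88 and 1.46 for 7 fat cell markers and 5.38 and 5.12 for 10 cartilage and bone markers. All sums here count the floor value for members at the floor. Different genes led the last pair of sums, Col2a1 in MEF and Alpl in ES (2.04, and the floor in MEF). Among fat cell markers Fabp4 (11.1-fold) and Pparg (5.47-fold) were lower in ES and none was 5-fold higher, and after normexp correction neither passed 5-fold. The part of such cells in the differences was not tested.

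The genes seen in 1 of the 2 cell types were also looked up on the other 7 arrays. Of the 394 genes at least 5-fold higher in ES without a signal above background in MEF, the clone made with 10 factors had 313 (79.4%) above background, the clone made with 4 factors 203 (51.5%), and the pair made with 3 factors 181 and 191. The unselected MEF that received 4 factors showed 129 of them (32.7%), NIH3T3 cells transformed by HRasV12 51 and a wild-type MEF line that immortalised spontaneously and carries a retroviral transgene 53. None of the other 7 arrays showed 47 of the 394 (11.9%), Smc1b and Pecam1 among them. Over all genes this share was 26.2%, which includes genes without a signal in ES and MEF too. Of the 154 genes at least 5-fold lower without a signal in ES, 141 (91.6%) were above background in the unselected MEF and 58 to 84 on each of the other 6 arrays. Over all 16006 genes the share above background on these 7 arrays was 56.6% to 64.6%.

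Position on the chromosomes was a further feature that the choice of the arrays did not use, and the 2 chromosomes described here were chosen after their values were seen. Among genes above background on both arrays, the median difference was 0.45 on chromosome 8 (494 genes, 65.2% of them higher in ES) and 0.47 on chromosome 11 (762 genes, 65.5%). On each of the other chromosomes it was between -0.18 and 0.14, with 42.8% to 55.3% of genes higher. The difference ran along both chromosomes, with medians of 0.25, 0.49 and 0.62 in consecutive segments of equal gene number on chromosome 8 and 0.58, 0.41 and 0.50 on chromosome 11. Of 2054 genes measured on these chromosomes, 6.96% were at least 5-fold higher in ES against 4.35% elsewhere. The share was 6.49% on chromosome 8 and 7.26% on chromosome 11, and it was similar on the X chromosome (7.03%) and chromosome 7 (6.33%), so it is not particular to the pair. On chromosomes 8 and 11 Zfp42, Cdh1, Tex19.1, Pipox and Grb7 are among these genes. Set against the other arrays, the shift lay with ES (0.41 on chromosome 8 and 0.40 on chromosome 11) and not with MEF (-0.06 and -0.08). In the 4 clones these 2 chromosomes lay between -0.08 and -0.03, and the wild-type immortalised MEF line stood at 0.29 on chromosome 8. With arrays scaled to their medians chromosomes 8 and 11 were at 0.11 and 0.12 and the others between -0.52 and -0.18. DNA copy number was not measured, and its part in this shift was not tested.

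**Figure D5:**
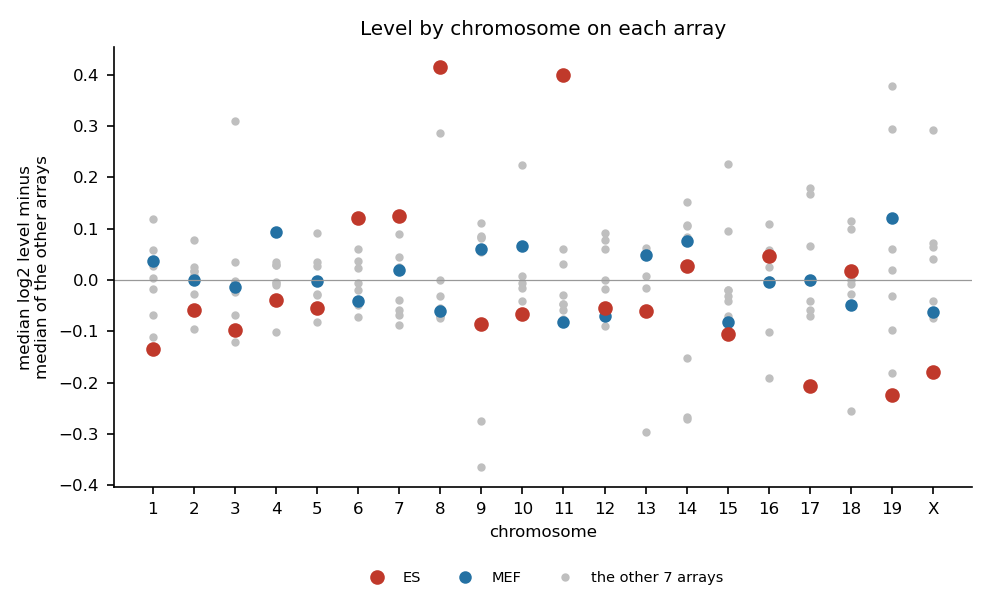
Median over the genes of each chromosome of the log2 level on an array minus the median of the other 8 arrays, centred on each array's median, for 7430 genes above background on all 9 arrays, with ES in red, MEF in blue and the other 7 arrays in grey. ES stands at 0.41 on chromosome 8 and 0.40 on chromosome 11, and its next highest chromosome is at 0.12.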

How the data were processed

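The deposited scanner files hold intensity values that, per the file headers, the authors read with the scanner software Feature Extraction, version 8.5.1.1, and the column used is its background-subtracted processed signal. A probe is well above background where that program flags it, and such flags, not read depth, set the precision. For 20868 gene probes (736 control spots left out) repeated spots were averaged and each array was divided by its 75th percentile, set to the floor and put on the log2 scale. The deposited value table, also an intensity, matched the scanner signal within 0.5% and served as an alternative. Names came from RefSeq accessions and deposited descriptions (16819 probes for 16006 genes), which left 4049 without a name. Each gene is given by the probe with the highest mean signal over the 9 arrays. Of 94 genes with several probes and one past 5-fold, 7 had all probes past it and none had probes past it in opposite directions. Probe positions come from the files, where no build is given, and promoters from RefSeq tables of GRCm38.p6.

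A gene was counted where its floored log2 difference came to at least 5-fold and the brighter side was well above background. Named genes were the 12 with the largest fold or bound on each side, the 4 largest in each list and direction past 2-fold, fixed genes (Pou5f1, Sox2, Nanog, Klf4, Myc, Fbxo15, Xist, the Y genes and the housekeeping list) and members 2-fold against their list's median. Other list members were named after their values were seen, and a few genes that the rule names are not reported here. The members and lists were chosen with earlier results of these data known. Calculations used Python 3.11.15, pandas 2.3.3 and numpy 2.4.6, and the normexp alternative (offset 50) limma 3.58.1 in R 4.3.3, and the counting steps were tested on simulated data.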

Additional observations from a re-analysis of the deposited data

How the results depend on the processing

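No paired analysis was possible because each side is 1 array, and for the same reason no replicate could be left out. The 746 genes higher in ES became 178 after normexp background correction and 352 where both sides had to be above background, and 2510 at a threshold of 2-fold and 364 at 10-fold. The 639 lower genes became 222 after normexp, 485 where both sides had to be above background, and 2164 and 235 at those thresholds. Under the other 8 settings the counts were 545 to 753 higher and 606 to 779 lower, with scaling to the median giving the lowest and the highest of these. Of 134 named genes past 5-fold, 85 were past it after normexp, 124 with median scaling and 132 after quantile normalization, and none changed direction under the settings run. Median scaling took Lif, Cbx8, Snrpn, Mcm5, Mcm2 and Pecam1 under 5-fold. The 49 under 5-fold after normexp ran from Cbx8 (1.41-fold), Lif (1.61), Fosl1 (1.70), Lama1 (1.84), Peg3 (1.85) and Pax6 (1.96) to Sox2 (4.18), Myc (4.30) and Acvr2b (4.97). Normexp was run with an offset of 50 intensity units added to every signal, which by itself lowers the folds of dim genes. How much of the loss comes from this offset was not tested. Precision is limited by signal near background: 5153 genes were above background on neither array.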

Other observations

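Several X-linked genes outside the lists were among those higher in ES, and they were chosen after their values were seen. Bex4, of the brain-expressed X-linked family, was at 5.24 in ES and -1.97 in MEF (148-fold), the largest fold toward ES among genes above background and unsaturated on both arrays. Bex1, of the same family, was at 3.08 and -3.84 (121-fold). Mageb16 and Gprasp2 were at least 112-fold and at least 93.1-fold higher, and Rhox13 at least 34.3-fold, each at the floor in MEF.

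On the MEF side, Lrrc17, a leucine-rich repeat gene, was 256-fold higher in MEF (the largest fold toward MEF among genes above background and unsaturated on both arrays). Fibin, a secreted protein gene, was at least 207-fold lower in ES.

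Promoter composition differed little: the median ratio of observed to expected CpG was 0.66 over all windows, 0.58 for genes at least 5-fold higher in ES and 0.60 for those at least 5-fold lower.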
